A study of Drosophila melanogaster with 4 samples.

Results

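The genes described here carry out the making of fatty acids from acetyl-CoA in heads of adult Drosophila melanogaster. They are ATPCL and AcCoAS, which supply acetyl-CoA, the carboxylase gene ACC, the fatty acid synthase genes FASN1, FASN2 and FASN3, the desaturase gene Desat1, the elongase genes Baldspot and bond, and SREBP, a transcription factor of the pathway. The 10 members were chosen by symbol in the BDGP6 annotation and looked up by their FlyBase gene IDs among the 17753 genes of the authors' table. Rows were found for 9 of the 10, and all 9 were tested. The annotated ID of FASN3 (FBgn0287184) matched no row, so FASN3 has no value here.

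Gene expression was measured by sequencing of oligo-dT-selected mRNA from pooled heads at day 30 in 4 samples. The 2 lamin-B overexpression samples had the genotype Hsp70-Gal4/+; +/UAS-LamB.GFP, in which a heat shock promoter drives Gal4 and Gal4 drives lamin B fused to GFP. The 2 samples of control siblings were +/+; +/UAS-LamB.GFP and carried the transgene without the driver. All were kept at 25 °C under a light and dark cycle, with 20 flies to a vial. No group carried the driver without the transgene, so the driver, variants linked to it and the overexpressed lamin cannot be told apart. The sex of the flies is not given in the sources used here. Nothing says that the samples of a group came from separate cultures, so the spread behind the p-values is that of these samples and may be technical.

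In animal cells, fatty acids are built from acetyl-CoA, which ATP citrate lyase makes from citrate and acetyl-CoA synthetase makes from acetate. Acetyl-CoA carboxylase turns it into malonyl-CoA, and fatty acid synthase joins these units into a saturated chain with electrons from NADPH. Elongases of the ELO family lengthen the chain and desaturases put double bonds into it. In flies the products go to stores in the fat body, to membranes and, in oenocytes, to the cuticular hydrocarbons that seal the cuticle and act as pheromones. Fly SREBP is released from the membrane by proteases under the control of phosphatidylethanolamine rather than of sterols.

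Each library's reads were recovered as whole numbers from the digits of the authors' deposited mean, fold change and standard error (SE). A read count divided by its library's size factor is called a normalized count here. The overexpression libraries had size factors of 1.15 and 1.10 and the controls 1.09 and 0.73, and values are given in that order throughout. The recovered libraries carry no replicate number. Lam, which encodes lamin B, had normalized counts of 4414 and 4758 in the overexpression libraries and of 2109 and 2130 in the controls. Reads of the transgene and of the native gene cannot be separated. Fold changes of the authors' deposited table are log2 values shrunken towards 0, and genes whose adjusted p fell below 0.05, of 11757 tested, count as called.

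FASN1, FASN2 and Desat1 were called higher in the overexpression heads, and no member was called lower. FASN2 differed most, with 6.44 times the mean normalized count of the controls, while FASN1 and Desat1 were higher by 24.3% and 17.8%. ATPCL, AcCoAS, ACC, Baldspot, bond and SREBP were not called. Called genes made up 3 of the 9 members tested, or 33.3%, against 8.74% of all tested genes in either direction, 5.66% called higher and 3.07% called lower. The same 3 members passed at an adjusted p below 0.01, where 5.04% of tested genes passed, 3.3% higher and 1.74% lower. Below 0.1 they again were the 3, against 11.9% of tested genes, 7.66% higher and 4.24% lower. With p-values adjusted over all 15282 genes that had one, the 3 passed against 5.97%, 3.87% higher and 2.1% lower. Of 4810 tested genes whose mean reached 1000 normalized counts, a range that holds all members with a row except FASN2, 4.43% were called higher and 6.49% lower. The median log2 fold change was 0.08 over the 9 members and 0.01 over all tested genes in the authors' deposited table.

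The members spanned a wide range of levels. Per kb of merged exon, Desat1 was the highest of the 9, with 60053 and 58124 normalized counts per kb under overexpression and 50158 and 50171 in the controls. FASN1 followed with 19614 and 18604 against 15362 and 15394 normalized counts per kb. AcCoAS stood at 12362 and 11743 against 11099 and 11604, ATPCL at 7104 and 6557 against 6368 and 6372, and ACC at 5562 and 5346 against 5185 and 5236 normalized counts per kb. These 5 enzyme genes each had a mean above that of at least 98.9% of tested genes. SREBP stood at 4365 and 4290 against 4293 and 4251, Baldspot at 1911 and 1849 against 1837 and 1943, and bond at 695 and 651 against 813 and 778 normalized counts per kb. FASN2 was the lowest, at 119 and 213 against 25.2 and 26.4 normalized counts per kb. The order of the 9 levels was the same in all 4 libraries, and no neighbours in it overlapped between libraries.

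**Figure D1:**
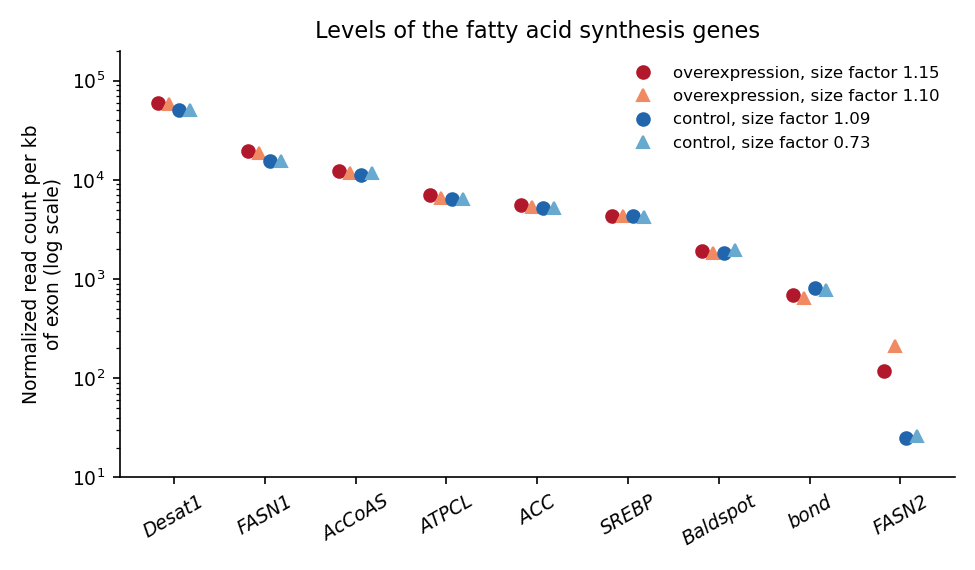
Level of each fatty acid synthesis gene, as normalized read count per kb of merged exon (log axis), in 4 libraries. Points are single libraries. Desat1 stands at 50158 to 60053 per kb, FASN1 at 15362 to 19614, and FASN2 last at 25.2 to 213.

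Both routes to acetyl-CoA had values close to those of the controls. ATPCL (FBgn0020236, BDGP6 chromosome 2R, 15993531 to 16001290, minus strand), the citrate lyase gene, had normalized counts of 30826 and 28449 against 27632 and 27648. Both overexpression libraries were above both controls, and they differed from each other by more than the controls did. In the authors' deposited table the value of ATPCL was 0.10 on the log2 scale, with an SE of 0.0568 and an adjusted p of 0.349. AcCoAS (FBgn0012034, chromosome 3L, 21270722 to 21280243, minus strand), the acetyl-CoA synthetase gene, had 44566 and 42333 against 40011 and 41832. Its lower overexpression library was 1.01 times its higher control. The authors' deposited table gave AcCoAS a log2 fold change of 0.08, with an SE of 0.0521 and adjusted p = 0.396. With shrinkage undone the ratio was 1.07 for ATPCL (95% interval 0.99 to 1.16) and 1.06 for AcCoAS (95% interval 0.987 to 1.14).

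ACC (FBgn0033246, chromosome 2R, 7974115 to 7991862, minus strand) encodes the carboxylase that commits acetyl-CoA to fatty acid synthesis. Its normalized counts were 50434 and 48473 against 47011 and 47473, so the groups did not overlap. For ACC the authors' deposited table printed 0.06 on the log2 scale, an SE of 0.0448 and an adjusted p of 0.486. The ratio with shrinkage undone was 1.05 (95% interval 0.984 to 1.11). Non-overlap was common: of 6168 tested genes with recovered reads and a mean of at least 500, 24.3% had their overexpression values both above the controls, and in 34.8% both lay below. Among the 9 members, 6 were above in this sense, 1 was below and 2 overlapped. These counts rest on the recovered split of reads within a group, which is less certain for SREBP and at high means.

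FASN1 (FBgn0283427, chromosome 2L, 3056598 to 3068177, plus strand) encodes the fatty acid synthase of the fat body and most other tissues. It had normalized counts of 171504 and 162675 in the overexpression libraries and of 134321 and 134601 in the controls. In these recovered reads both overexpression libraries were at least 1.21 times either control, and the controls differed by less than 1%. The authors' deposited table gave FASN1 a log2 fold change of 0.31, with an SE of 0.0458 and adjusted p = 2.58e-09. With shrinkage undone the ratio was 1.24 (95% interval 1.17 to 1.32). A second set of whole reads came close to the printed digits of FASN1, missing the fold change by 1.2e-09. It would put the normalized counts at 170245 and 163938 against 136953 and 131963, with the same ratio and the same order of groups. The controls would then lie further apart, and the smallest ratio between single libraries of the groups would be lower. The split of reads between the libraries of a group is less certain at the means of FASN1 and Desat1 than at that of FASN2.

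FASN2 (FBgn0042627, chromosome 2L, 3043947 to 3056143, plus strand) lies directly upstream of FASN1 on the same strand, with 454 bases between them. In Drosophila it is known for making methyl-branched fatty acids for cuticular hydrocarbons in oenocytes, cells that lie mainly beneath the abdominal cuticle. FASN2 had 1116 and 1919 overexpression reads and 224 and 157 control reads, which are normalized counts of 974.5 and 1737 against 205.6 and 215.2. The overexpression libraries differed from each other by a factor of 1.78, while the controls differed by 1.05. The groups did not overlap, and the lower overexpression library was 4.53 times the higher control. For FASN2 the authors' deposited table printed a shrunken value of 1.45 (log2), an SE of 0.159 and an adjusted p of 1.94e-17.

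The shrunken value of FASN2 understates the ratio of its reads. With shrinkage undone the log2 fold change was 2.69 (SE 0.29), a ratio of 6.45 (95% interval 4.35 to 9.55). Leaving out the overexpression library of size factor 1.10 gave a ratio of 4.63, and leaving out that of 1.15 gave 8.26. Of 979 tested genes with a mean within a factor of 1.25 of that of FASN2, 4 had a larger shrunken change in either direction and 99.6% had a smaller SE. Of the 6168 tested genes with recovered reads and a mean of at least 500, 14 (0.227%) had a larger ratio of the overexpression library of size factor 1.10 to that of 1.15. Over the other 8 members that ratio was between 0.923 and 0.983, so FASN2 alone among the 9 was higher in the library of size factor 1.10.

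FASN1 had far more reads than FASN2 in every library, while FASN3 was not measured. FASN2 held 0.565% of the reads of FASN1 and FASN2 together in the overexpression library of size factor 1.15 (95% Clopper-Pearson interval 0.532% to 0.599%) and 1.06% in that of 1.10 (1.01% to 1.1%). In the controls it held 0.153% (0.134% to 0.174%) and 0.16% (0.136% to 0.187%). These intervals cover counting error only. Per kb, FASN1 exceeded FASN2 by 164 and 87.4 times under overexpression and by 610 and 584 times in the controls. The protein-coding gene before FASN2, CG17261, lies 353 bases upstream on the same strand and was looked up for its position. CG17261 had normalized counts of 57.6 and 213.7 against 20.2 and 11.0 and was called higher, since the authors' deposited table put it at 0.38 with an adjusted p of 0.016. From the authors' deposited table, CG17221, the next gene upstream, had -0.10 (adjusted p = 0.765) and toc, on the other strand 167 bases beyond FASN1, had -0.08 (adjusted p = 0.451).

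**Figure D2:**
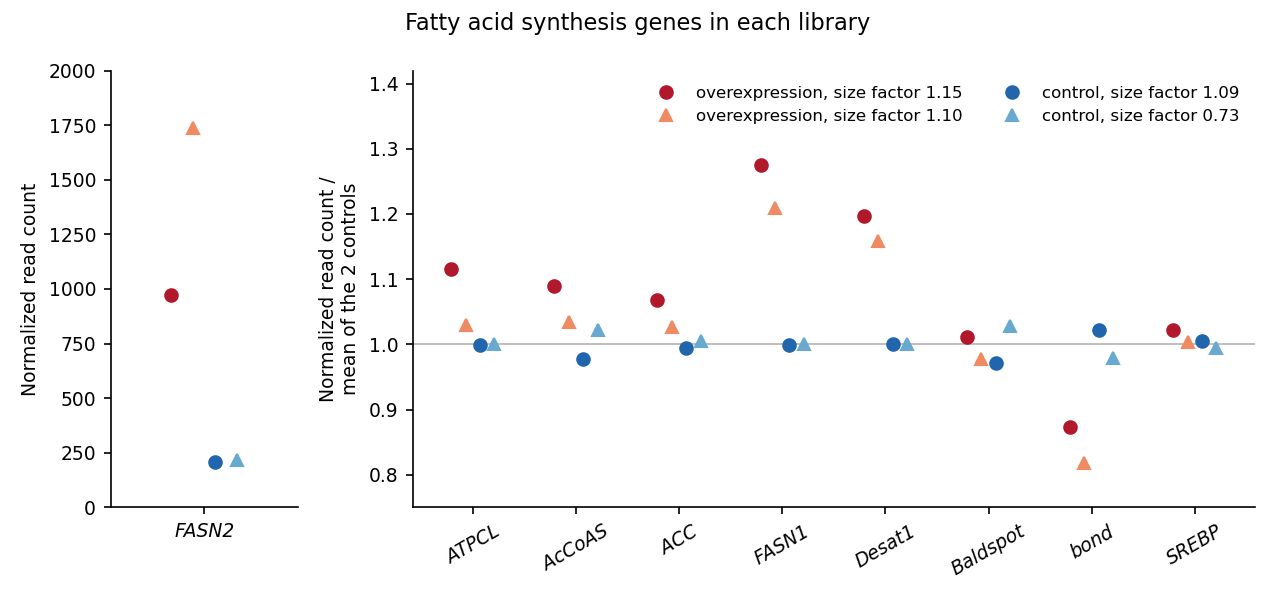
Fatty acid synthesis genes in each library: left, normalized read count of FASN2; right, normalized read count of the other 8 genes divided by the mean of their 2 controls. Points are single libraries. FASN2 stands at 974.5 and 1737 against 205.6 and 215.2, and FASN1 and Desat1 lie above 1.15 in both overexpression libraries.

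Desat1 (FBgn0086687, chromosome 3R, 12439600 to 12447616, plus strand) encodes the main acyl-CoA desaturase of the fly, which makes monounsaturated fatty acids for lipids and for pheromones. Its normalized counts were 149412 and 144612 against 124792 and 124825. Both overexpression libraries were at least 1.16 times either control. The authors' deposited table gave Desat1 a log2 fold change of 0.23, with an SE of 0.0409 and adjusted p = 1.04e-06. The ratio with shrinkage undone was 1.18 (95% interval 1.11 to 1.25). FASN1 and Desat1 thus differed between the groups by 24.3% and 17.8%. The libraries of 1 group differed by at most 1.08-fold for every member except FASN2. Few tested genes had a mean within a factor of 1.25 of theirs, 6 for FASN1 and 5 for Desat1. Of these, 2 and 3 had a larger shrunken change in either direction, so changes of this size were not rare at such means. Desat2, a paralog near Desat1 on the same strand, had far fewer reads, 64 and 39 against 51 and 23, and the authors' deposited table put it at 0.04 (adjusted p = 0.941).

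Neither elongase member was called. Baldspot (FBgn0260960, chromosome 3L, 16648442 to 16661615, minus strand), related to the mammalian elongase of saturated chains, had normalized counts of 5434 and 5259 against 5225 and 5526. The groups overlapped, and the authors' deposited table put Baldspot at -0.01 (log2), with an SE of 0.0681 and an adjusted p of 0.986. bond (FBgn0260942, chromosome 3R, 22550680 to 22556494, plus strand) encodes an elongase of very long chains that is needed in spermatocytes and for a male pheromone. It had 1336 and 1251 against 1563 and 1497 normalized counts, with both overexpression libraries below both controls. The authors' deposited table gave bond a log2 fold change of -0.22, with an SE of 0.102 and adjusted p = 0.2, which did not pass the test. The ratio of bond with shrinkage undone was 0.845 (95% interval 0.723 to 0.988), an interval of a single gene that takes no account of the number of genes tested.

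SREBP (FBgn0261283, chromosome 3L, 19793935 to 19798979, plus strand), whose protein turns on genes of fatty acid synthesis, had normalized counts of 17704 and 17399 against 17411 and 17240. The libraries of the groups overlapped, by 17399 against 17411, but the recovered split of reads within a group is among the least certain for SREBP. The authors' deposited table put SREBP at 0.02 (log2), with an SE of 0.0463 and an adjusted p of 0.927. The 95% interval of its ratio, 0.95 to 1.08, bounds what these libraries allow for the transcript. SREBP acts as a cleaved protein, which was not measured.

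**Figure D3:**
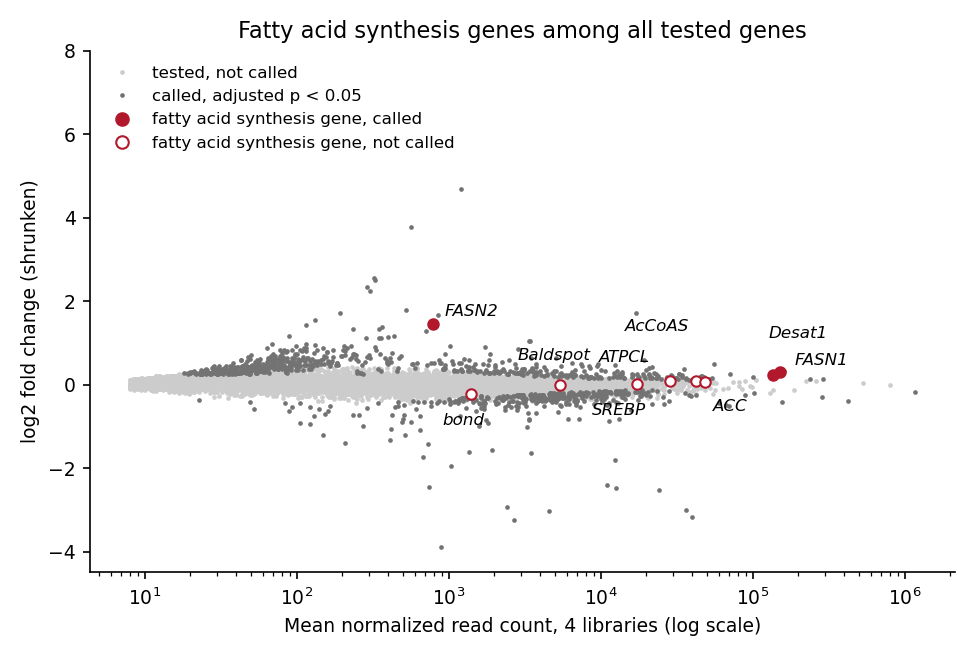
Shrunken log2 fold change against mean normalized read count over 4 libraries (log axis) for the 11757 tested genes. Grey points are single genes, dark where called. Filled circles are called fatty acid synthesis genes and open circles those not called. FASN2 stands at 1.45, while FASN1 and Desat1 lie among the genes of highest mean, at 0.31 and 0.23.

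Some members share their span with other annotated genes, and the strand setting of the authors' counting is not given in the sources used here. ACC holds Nup44A on the other strand within its span, ATPCL overlaps CG8320 and Tmem131 on the other strand, SREBP overlaps CG14102, and an antisense RNA, asRNA:CR44062, overlaps bond. Without strand, reads in a stretch of exon shared by both genes cannot be told apart. Only the spans of the genes were compared, not their exons. In the BDGP6 annotation used here, the spans of FASN1 and Desat1 held no other gene, and that of FASN2 held small nuclear RNA genes. The nearest annotated neighbours of Desat1 had no row in the authors' table. They are vrs, 36 bases beyond it on the same strand, and CG46427, 460 bases before it on the other strand.

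Genes of neighbouring steps were described from 8 lists. Leaving out the members, 76 of their genes had a row and 73 were tested, of which 12 were called higher and 3 lower in the authors' deposited table. That is 20.5%, against 8.74% of all tested genes, and their median log2 fold change was 0.03 against 0.01. The count of higher genes was 11 without either overexpression library and 7 without either control library. By list, members included, the share called was 33.3% in the ELO family and glycerolipid synthesis, 25% in the SREBP list and 22.2% in desaturases. It was 14.3% in citrate and NADPH supply and in acyl-CoA synthetases, 6.67% in regulators and 0% in other elongation steps. In lists this short, 1 gene moves the share far.

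Among 7 genes that supply citrate and NADPH, Men, the cytosolic malic enzyme gene that yields NADPH, was the one called. Men had normalized counts of 37859 and 35994 against 31081 and 31256, for which the authors' deposited table printed 0.24 (adjusted p = 4.56e-05). Its overexpression libraries were both above the controls. For the pentose phosphate dehydrogenase genes Zw and Pgd, also sources of NADPH, the authors' deposited table printed 0.05 (adjusted p = 0.877) and 0.14 (adjusted p = 0.16). The list's median was 0.05.

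The list of SREBP processing and phosphatidylethanolamine synthesis had 2 of 8 tested genes called, both higher. Pect, whose enzyme activates phosphoethanolamine, had 8126 and 7895 against 7026 and 6758 normalized counts, for which the authors' deposited table printed 0.21 (adjusted p = 0.0101). Pisd, the phosphatidylserine decarboxylase gene, had 7287 and 7319 against 6190 and 6155, and the authors' deposited table put it at 0.23 (adjusted p = 0.0012). Pect did not pass without the overexpression library of size factor 1.15 or without the control of 0.73, while Pisd passed without any 1 library. SCAP, S1P and S2P, which encode the escort protein and proteases of SREBP, were not called, and the authors' deposited table put them at -0.09, 0.06 and -0.01.

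The ELO family had 20 members listed, 2 of them (eloF and CG8534) without reads, and 5 of 18 tested were called higher and 1 lower. The family median was 0.10. CG30008 had 366 and 866 overexpression reads against 13 and 16, a pooled ratio of 34.3 (95% exact interval 23.8 to 51.5, counting error only). A pooled ratio divides each group's summed reads by its summed size factors, unlike the ratio of mean normalized counts given for the members. CG16904 had 375 and 841 reads against 4 and 0, and CG9458 had 56 and 116 against 0 and 1. CG18609 had 66 and 112 against 16 and 12, a pooled ratio of 5.14 (95% exact interval 3.44 to 7.95). These 4 genes were low or nearly absent in the controls, and in each the overexpression library of size factor 1.10 was the higher, by 1.76 to 2.45 times after normalization.

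The authors' deposited table gave 1.11 (adjusted p = 1.14e-11) for CG30008, 0.25 (adjusted p = 0.0455) for CG16904, 0.43 (adjusted p = 0.00242) for CG9458 and 0.42 (adjusted p = 0.0174) for CG18609. Shrinkage leaves these far below the ratios of their reads. CG33110 was of another kind, with 4657 and 4292 against 3355 and 3662 normalized counts, and the authors' deposited table put it at 0.33 (adjusted p = 0.00311). CG31522 was lower, with 5023 and 5247 against 6686 and 6325, and the authors' deposited table put it at -0.33 (adjusted p = 8.34e-05). Without the control library of size factor 1.09, only CG30008 of the ELO genes passed as higher, and without that of 0.73, CG30008 and CG33110 did. Without the overexpression library of size factor 1.15, 6 passed as higher, among them CG6660 and CG9459, which were not called with 4 libraries, while CG33110 did not pass.

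Of 9 tested desaturase and electron donor genes, Desat1 and CG15531 were called, both higher, and the median of the list was 0.05. CG15531, a relative of Desat1, had 130 and 256 reads against 1 and 0. Its pooled ratio was 312 (95% exact interval 55.7 to 12358, counting error only). The authors' deposited table gave CG15531 0.80 (adjusted p = 2.15e-07). None of the other 4 genes of the elongation cycle (spidey, Hacd1, Hacd2 and Sc2) was called, and the authors' deposited table put them at -0.04, -0.10, -0.14 and 0.03.

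Among 7 tested acyl-CoA synthetase and transport protein genes, bgm, which encodes a synthetase of very long chains, was the one called. bgm had 7684 and 7582 against 5261 and 5190 normalized counts, and the authors' deposited table put it at 0.53 (adjusted p = 4.11e-17). Of 9 glycerolipid synthesis genes, 1 was higher and 2 were lower. From the authors' deposited table, the acyltransferase gene Agpat2 stood at 0.31 (adjusted p = 0.0183), its relative Agpat1 at -0.35 (adjusted p = 0.0122) and Lpin, the phosphatidate phosphatase gene, at -0.19 (adjusted p = 9.94e-04). Agpat2 no longer passed whichever library was left out. Agpat1 passed without the overexpression library of size factor 1.15 but not without any of the other libraries, and Lpin passed in all 4 cases. Of 15 tested regulators, 1 was called, or 6.67%, against 8.74% of all tested genes. It was sug, a sugar-responsive transcription factor gene, with 1505 and 1613 against 959.3 and 970.6 normalized counts and 0.61 (adjusted p = 6.16e-07). Mondo and bigmax, also genes of sugar sensing, stood at 0.02 (adjusted p = 0.945) and -0.09 (adjusted p = 0.852). The values of sug, Mondo and bigmax are from the authors' deposited table.

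**Figure D4:**
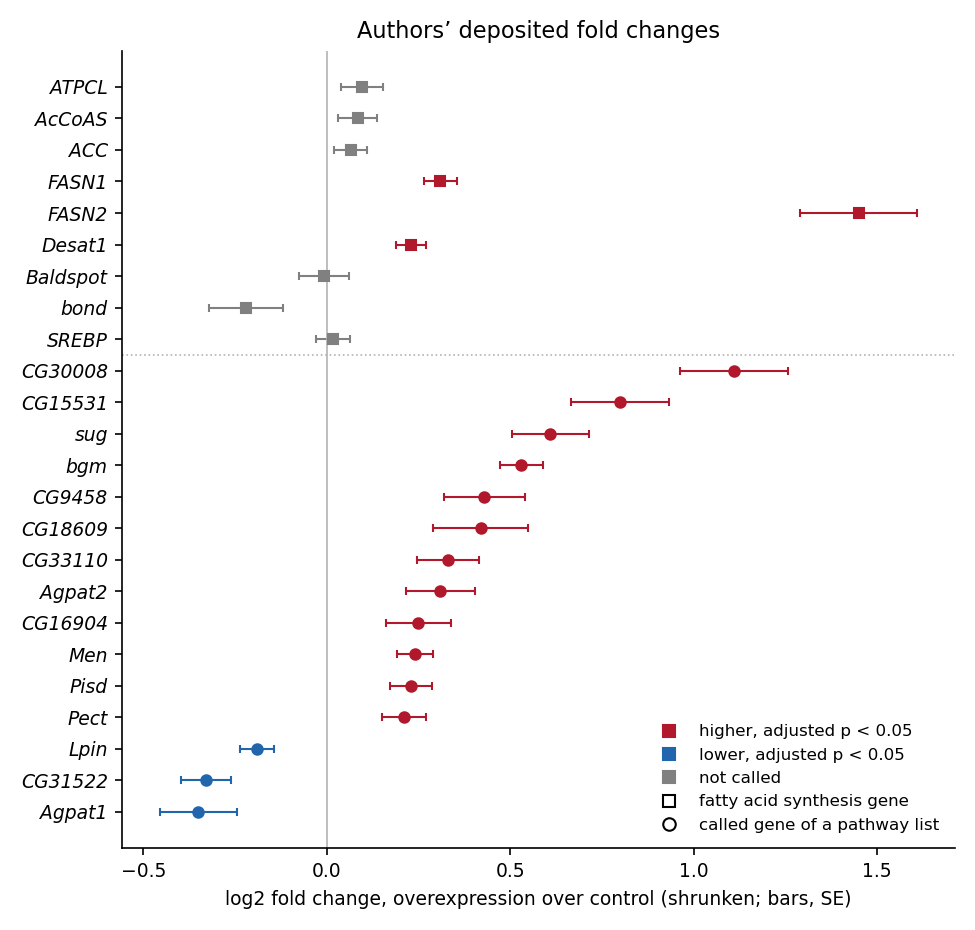
Shrunken log2 fold changes of the authors' deposited table, overexpression over control, with SE as bars. Squares above the dotted line are the 9 fatty acid synthesis genes and circles below it the called genes of the pathway lists. On this shrunken scale FASN2 stands highest at 1.45, followed by CG30008 at 1.11. Their pooled ratios of reads were 6.44 and 34.3, and those of CG16904, CG9458 and CG15531 were larger still.

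Some markers of oenocytes, the male tract and the gut were, like FASN2, higher under overexpression, while those called of photoreceptors and neurons were lower. The part of any cell type in the difference of FASN2 was not tested. In bulk heads, a change in the number of cells of a type and a change in RNA per cell cannot be told apart. Cyp4g1, which encodes the oenocyte enzyme that releases hydrocarbons, had normalized counts of 11583 and 26745 in the overexpression libraries and of 90.0 and 201.5 in the controls. The pooled ratio of Cyp4g1 was 141 (95% exact interval 125 to 161, counting error only). The authors' deposited table gave Cyp4g1 0.49 (adjusted p = 6.37e-04) after shrinkage. Of the 11 genes of the oenocyte list, 9 had recovered reads, with sums of 36577 and 53223 against 25700 and 25608 normalized counts. Both overexpression libraries were above both controls in 6 of the 9 and below in 2, eloF had no reads, and Fad2 had 1 read in all. Of the 6168 genes with a mean of at least 500, 24.3% were above and 34.8% below in this sense. CG18609, CG9458, CG30008 and CG17562, among those above, had lower means, for which no such share was found. CG5065, a fatty acyl-CoA reductase family gene of the list, was lower, since the authors' deposited table put it at -0.39 (adjusted p = 1.91e-09). Of the 5 ELO genes called higher, CG18609, CG9458 and CG30008 are also on the oenocyte list.

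Many genes of the male tract and gut, organs that heads lack, were also called higher, with exceptions. Of all tested genes, 5.66% were called higher and 3.07% lower. Of the accessory gland and testis list 8 of 14 tested genes were called, all higher, and Acp63F had overlapping groups. The 15 accessory gland and testis genes summed to 1037 and 2830 normalized counts against 29.4 and 49.4. Of these, 9 had no control reads, and all 15 were higher in the overexpression library of size factor 1.10. Of 10 midgut genes, 7 were called higher and 1, Amy-p, lower, which the authors' deposited table put at -0.19 (adjusted p = 0.0117). The sum of the 10, at 13210 and 17863 against 12637 and 12039, was mostly Amy-p, with 10401 and 10571 against 12264 and 11724 normalized counts. The other 9 genes, summed apart after these values were seen, came to 2809 and 7292 against 372.7 and 315.3. Of the 10, 5 had no control reads, and the median ratio of the overexpression library of size factor 1.10 to that of 1.15 was 2.44. Of the ejaculatory bulb list, 3 of 5 genes were called, all higher, and EbpIII and Est-6 were not, at 0.05 and 0.11 in the authors' deposited table. In this list 3 of 5 genes had recovered reads, with sums, mostly of Est-6, of 22593 and 21863 against 17244 and 17834. These sums leave out EbpII and EbpIII, and the mean of EbpIII, 73768.7, exceeds them. Its defining gene Ebp had 2492 and 2957 reads against 1 and 0. FASN2 had 224 and 157 control reads. At most 10 reads in both controls together were found for 13 of 15 accessory gland and testis genes and 8 of 10 midgut genes. The same held for 3 of 9 oenocyte genes and 1 of 3 ejaculatory bulb genes with recovered reads. Cyp4g1, Jhbp5 and Mal-A1, of the oenocyte, ejaculatory bulb and midgut lists, had 245, 220 and 622 control reads. What FASN2 shares with these markers was not tested.

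**Figure D5:**
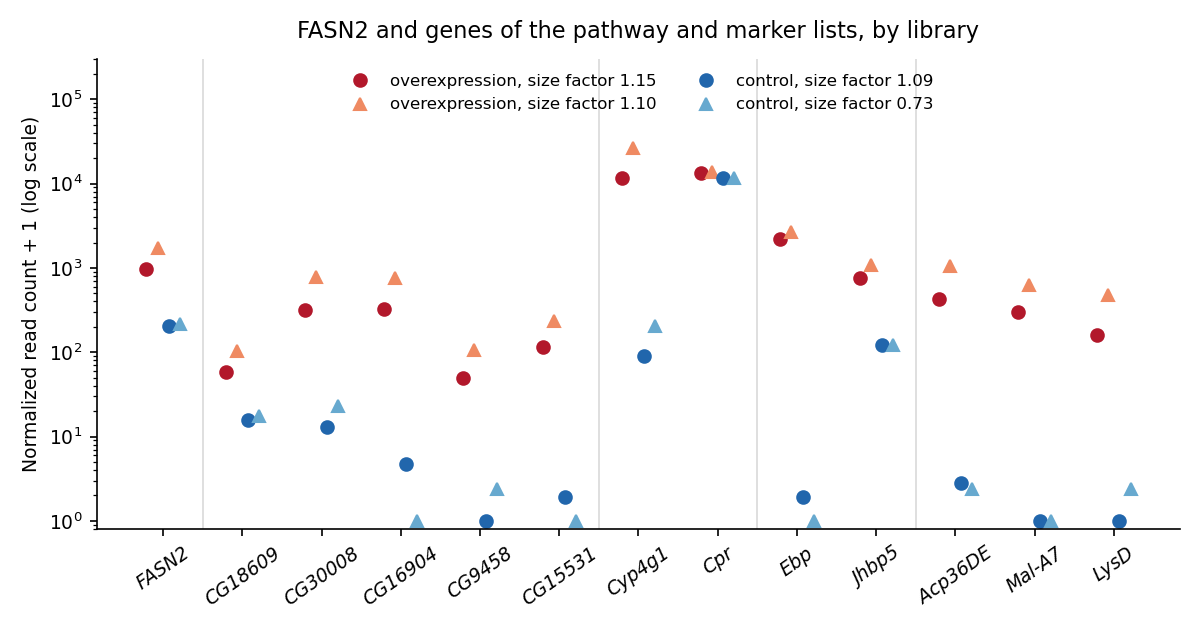
Normalized read count plus 1 (log axis) of FASN2, elongase and desaturase genes of low mean, and markers of oenocytes, ejaculatory bulb, accessory gland and midgut, in 4 libraries. Points are single libraries. Cyp4g1 stands at 11583 and 26745 against 90.0 and 201.5. In every gene shown the overexpression library of size factor 1.10 is the higher of the pair, but the genes were picked from their lists. Est-6, not shown, had 0.921 times as much in that library as in that of 1.15. CG5065, spidey and Amy-p, lower under overexpression, and Acp63F, whose groups overlapped, are not shown either.

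The imbalance seen in FASN2 was not seen in FASN1 or Desat1. The overexpression library of size factor 1.10 had 0.949 times the normalized count of that of 1.15 for FASN1, 0.968 times for Desat1, 0.951 times for Men and 0.987 times for bgm. Of 10 tested fat body markers, 3 were called higher and 3 lower, against 5.66% and 3.07% of all tested genes. Of the 12 listed, the 11 genes with recovered reads summed to 45853 and 48974 against 45969 and 44755 normalized counts. These sums leave out apolpp, which had no single solution and whose mean of 239398.7 exceeds them. The authors' deposited table put Lsp1beta and Lsp2, genes of storage proteins, at -0.84 each, and fon and the lipid carrier genes Apoltp and apolpp at 0.47, 0.34 and 0.14. The part of the fat body in the higher counts of FASN1 and Desat1 was not tested. Markers of the head's main cell types were present, with photoreceptor genes summing to 303539 and 297217 against 347302 and 341530 over 7 of 13 genes. Neuron genes summed to 85711 and 92975 against 109449 and 100475, and glial genes, over 4 of 5, to 24282 and 23005 against 23641 and 23979 normalized counts.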

How the data were processed

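The submitters' processing notes name the tools STAR 2.5 and HTSeq, the packages DESeq and DESeq2 1.22.1, and the genome build BDGP6, without roles or order. The table used holds the authors' deposited comparison: a mean signal (mean normalized count over the libraries), a log2 fold change with its standard error, a Wald score, and a p-value with its Benjamini-Hochberg adjustment. It holds no counts per library, so the authors' Wald test replaced the planned quasi-likelihood test. The members, lists and tests were chosen with earlier results of these data known. The second table, whose groups are not named, was not used here.

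A mean is a sum of whole reads divided by size factors, printed to 10 digits. Reads were taken as the whole numbers that gave the printed mean, fold change and standard error in a negative binomial fit with a normal prior, written in Python 3.11.15 with numpy 2.4.6 and scipy 1.17.1. Size factors came from genes with 1 read, and the side of a library from the sign of their fold change. The mean alone gave 1 solution for 700 of 700 genes of mean 25 to 45. The prior precision (19.4692) agreed within 1.3e-08 over 60 genes. Of 153 genes sought, 142 had 1 solution and 139 of these also met the equation of the dispersion. The fold change had to match within 6e-10 and a margin for the last digit of the standard error, which brought the limit to at most 9.8e-10 for 8 members and to 4.7e-08 for FASN2. The solution of FASN2 missed by 3.9e-08, and the second one of FASN1 missed by 1.2e-09 against a limit of 7.7e-10. That tolerance was tightened after FASN1 was seen to have a second solution, as the dispersion limit was widened after Mal-A1 was seen to miss it. With fold changes shifted by multiples of 2e-07, 7 of 180 searches over the 9 members found a solution, 4 of them for SREBP, 2 for FASN1 and 1 for Desat1, so the split of reads within a group is least certain for these. Shrinkage was undone by the same fit without the prior, at the dispersion solved from the standard error, and 95% intervals are from that fit. Exon lengths and positions are from the BDGP6 annotation. Named besides the members are the called genes of the pathway lists, markers beside a result, list genes that give context, and flanking genes chosen by position. Libraries were left out in turn with dispersion and prior held at their values from 4 libraries, against the largest unadjusted p among called genes, 0.00434. The recovery was tested on simulated data, where it found the true reads alone at low and middle means. At the highest means it found several solutions or none for part of the genes. These means include levels near those of ACC and AcCoAS as well as of FASN1 and Desat1.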

Additional observations from a re-analysis of the deposited data

How the results depend on the processing

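No paired analysis was possible because the recovered libraries carry no replicate number. Count models of other tools were not run: that alternative was set for a table of counts per library, and recovered reads, which cover part of the genes, were not used in its place. FASN1, FASN2 and Desat1 kept direction and call with shrinkage undone, relative to the median of genes with a mean of at least 1000 (-0.03), and without each library, and the count of 3 members called higher held at adjusted p under 0.01, under 0.1, with adjustment over every gene with a p-value and without each library. The ratio of recovered reads moved FASN2 from 1.45 to 2.69 on the log2 scale. Baldspot, at -0.01, changed sign relative to that median (0.022) and ranged from -0.044 to 0.031 without each library, never passing the test; the cause was not tested. Without each library the log2 fold change ranged from 0.27 to 0.34 for FASN1, from 1.04 to 1.45 for FASN2 and from 0.21 to 0.25 for Desat1, and the read ratio of FASN2 from 4.63 to 8.26.

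At adjusted p under 0.01 the genes called higher numbered 3 in the ELO family, 1 in the SREBP list and 0 in glycerolipid synthesis, where 1 (Lpin) was lower. At adjusted p under 0.1 the regulators had 1 lower gene. Without each library in turn, chosen after seeing the data, genes called higher ranged from 7 to 11 over the pathway lists together, from 1 to 6 in the ELO family, from 1 to 2 in the SREBP list and from 0 to 0 in glycerolipid synthesis, where lower genes ranged from 1 to 2. With a dispersion of 4 libraries these refits are no independent test, and 2 libraries a group limit what is detectable. A tolerance of 3e-09 gave FASN1 the same ratio, 1.24.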
